A study of Mus musculus with 2 samples.

Results

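The genes described here encode the machinery that carries secretory proteins into and out of the endoplasmic reticulum (ER): the signal recognition particle and its receptor, the Sec61 translocon with its partners, the TRAP complex, the signal peptidase complex, the COPII and COPI vesicle coats, the p24 cargo receptors and the Sec22 family. Members were taken by gene symbol alone, with no use of their values, and numbered 61 of the 23652 genes in the deposited table. Of these, 60 reached a mean of 1 FPKM (read counts per unit of gene length, corrected for library size) over both libraries. Sec31b, a second gene for the COPII outer coat, was the exception, at 10 reads in the knockout library and 32 in the control library. The labelled parts of the secretory pathway were present, with median levels of 53.0 FPKM in the knockout and 61.4 FPKM in the control over the 60 measured members, against 6.08 and 8.27 FPKM over all 10666 measured genes.

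RNA was sequenced from pancreatic islets of mice aged 7 months. The knockout library came from SRSF2 flox/flox Ins2-Cre mice, in which a recombinase under the insulin 2 promoter acts in beta cells, and the control library from SRSF2 flox/flox mice without the Cre. Both genotypes carry the floxed alleles, and the Cre transgene and the loss of Srsf2 differ together, so their effects cannot be told apart. Srsf2 by cell type cannot be read from these bulk libraries. Each group had 1 library, and how many mice gave each, their sex and the Ins2-Cre line the sources used here do not state. Without replicates, every value below describes a single pair of libraries and nothing about the spread between mice.

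A new secretory protein is recognised by its signal peptide while still on the ribosome, is handed to the Sec61 channel, and has the signal peptide cut off as it enters the ER. COPII coats then bud vesicles towards the Golgi, and COPI coats return escaped ER proteins and recycled receptors. Beta cells depend on this route for proinsulin, and acinar cells, the exocrine cells around islets, use it for digestive enzymes.

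The libraries held 15098659 reads on genes in the knockout and 17412828 in the control. Differences are on the log2(FPKM + 0.5) scale, knockout minus control, and 2-fold means a difference of at least 1 on this scale. Over all measured genes the median difference was -0.36, and relative differences have this median subtracted. Ratios are of FPKM without the pseudocount, with 95% counting intervals that leave out all variation between mice. Srsf2 itself stood at 1209 reads in the knockout and 2296 in the control, a relative difference of -0.34. Of the 23 measured acinar markers, 22 were past 2-fold on the higher side in the knockout, where the list took 16.2% of reads against 1.87% in the control, and no marker was at 0 in either. Of the 18 beta cell markers, 7 were past 2-fold on the lower side as deposited (background 6.32%) and 0 on the higher (background 1.57%). Relative to all genes 4 were past 2-fold on the lower side (background 1.36%) and 0 on the higher (background 3.22%). The 18 markers had a median relative difference of -0.45, with 13 below 0 and 5 above it. The latter included Ins2 at 0.33, Iapp at 0.43 and Ucn3 at 0.53. With the trend on gene length removed (described further on), the median was -0.58, with 16 below 0 and 2 above it. Ins2 was then at -0.37, Iapp at -0.25 and Ucn3 at 0.19. Together the 18 markers took 21.6% of reads in the knockout and 23.7% in the control. In islet RNA, fewer cells of a type and less RNA per cell cannot be told apart, and the part of the acinar RNA in the results below was not tested.

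The secretory machinery did not stand apart as a block. As deposited, 45 of its 60 measured genes (75%) had lower FPKM in the knockout, beside 78.9% of all measured genes. The members had a median relative difference of -0.05, with quartiles of -0.22 and 0.28, beside quartiles of -0.28 and 0.31 for all measured genes. Together they took 0.798% of reads in the knockout and 1.05% in the control. As deposited, 2 members were at least 2-fold higher (3.33%, beside 1.57% of all measured genes) and 3 at least 2-fold lower (5% beside 6.32%). Relative to all genes, 3 were at least 2-fold higher (background 3.22%) and 2 at least 2-fold lower (background 1.36%), shares that rest on very few genes. Over all measured genes 167 were higher and 674 lower as deposited, and 343 and 145 relative to the median. The members past 2-fold on either scale were Tmed11, Tmed6 and Srp54b on the higher side and Sec16b, Srp54a and Sec16a on the lower side. Srp54a and Srp54b each passed the minimum mean level only through the library where it was higher. Srp54a had 0.155 FPKM in the knockout and 2.14 FPKM in the control, and Srp54b 1.85 and 0.786 FPKM. Their calls therefore rest in part on the minimum itself.

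**Figure D1:**
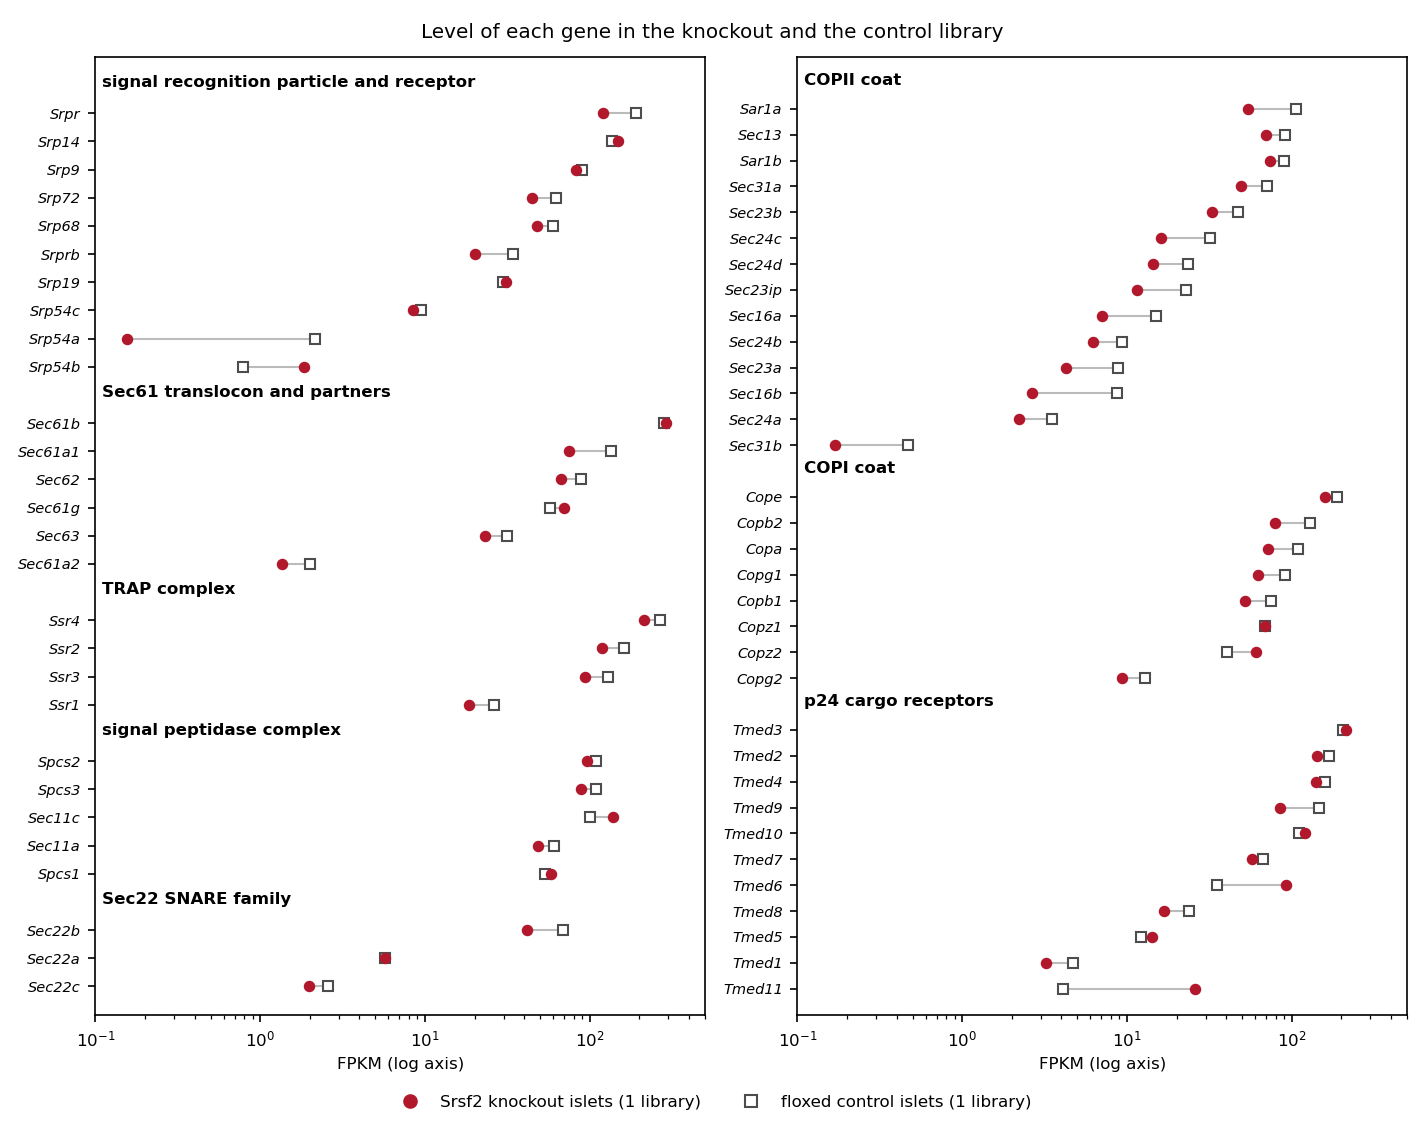
FPKM of each of the 61 genes on a log axis, grouped by role, with filled red circles for the knockout library and open squares for the control library. The widest gaps are at Srp54a, lower in the knockout, and at Tmed11, higher in the knockout, while every COPII gene has its knockout level to the left of its control level.

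COPII coat genes had lower levels in the knockout throughout. Sar1 is the small GTPase that starts the coat, Sec23 and Sec24 form the inner layer that picks cargo, Sec13 and Sec31 the outer cage, and Sec16 the scaffold at ER exit sites. All 13 measured genes had lower FPKM in the knockout as deposited, beside 78.9% of all measured genes. On the relative scale 12 of 13 lay below the median of all genes, against 5333 of 10666 genes (50%), a share that the median itself fixes. Their median length was 4618 bases, and of 4568 genes of 4000 bases or more, 3311 lay below 0. The COPII genes had a median relative difference of -0.31, and their summed level was 345 FPKM in the knockout and 528 FPKM in the control. Beta cell markers had a median of -0.45 in the same libraries, with 13 of 18 below 0 and 5 above it. Their part in the COPII values was not tested. With the trend on gene length removed (described further on), 10 of 13 COPII genes were below 0 and their median was -0.37. On that scale the beta cell markers had a median of -0.58, with 16 of 18 below 0 and 2 above it. Of the COPII genes, Sec24a, Sec24b and Sec31a were then above 0, by at most 0.05, and Sar1b below it. With the authors' size factors Sec13 and Sar1b stood slightly above 1, at ratios of 1.01 and 1.07.

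Sec16b, which lies on chromosome 1 from 157506733 to 157568425 on the plus strand (GRCm38), was the lowest of them. It had 249 reads in the knockout and 945 in the control. At 2.66 and 8.74 FPKM this gave a ratio of 0.304 (0.263 to 0.350) and a relative difference of -1.19. Its larger relative Sec16a, the main exit-site scaffold, had 1010 reads in the knockout and 2472 in the control, or 7.05 and 15.0 FPKM, a ratio of 0.471 (0.438 to 0.507). Both scaffold genes were thus past 2-fold as deposited, but relative to all genes only Sec16b was, with Sec16a at -0.67. With the length trend removed Sec16b was at -0.99 and Sec16a at -0.37.

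The GTPase and inner coat genes followed below the scaffold. Sar1a had 54.1 FPKM in the knockout and 107 FPKM in the control, a ratio of 0.508 (0.486 to 0.531). Sec23a stood at 4.24 and 8.84 FPKM, Sec24c at 16.1 and 32.0 FPKM, and Sec23ip, whose product binds Sec23, at 11.5 and 22.8 FPKM, in knockout and control. These 4 genes had relative differences between -0.61 and -0.60. Sec23b (32.7 and 46.9 FPKM), Sec24d (14.4 and 23.3), Sec24b (6.22 and 9.37) and Sec24a (2.21 and 3.53) lay between -0.31 and -0.15 in knockout against control. The cage genes were closer to the bulk of genes, with Sec31a at -0.14 and Sec13 at -0.00 on the relative scale. Sar1b, the gene of highest mean level in the coat, had 74.1 FPKM in the knockout and 90.2 FPKM in the control, a relative difference of 0.08, or -0.31 with the length trend removed.

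Promoter sequences were searched because genes of this pathway are known targets of the unfolded protein response, the programme that adjusts ER capacity. RefSeq promoters (GRCm38.p6, 250 bases before to 50 after each start) were found for 52 of the 61 members. The ER stress element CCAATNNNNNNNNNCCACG was in 0 of these 52, beside 0.137% of 27025 genes, and its second form, ATTGG and CCACG with any 1 base between them, was in 0, beside 0.0444%. The core TGACGTGG of the unfolded protein response element, a sequence that XBP1 and ATF6 can bind, was in 5 of 52 members (9.62%), beside 0.714% of all genes and 1.15% of the 8555 measured genes with a promoter. Both strands were searched, and the reverse of this core carries the same CCACG that ends both ER stress elements. The 5 holders are all coat genes, 3 of COPII and 2 of COPI. They are shown on the gene's strand with the core, or its reverse complement, in capitals, 24 bases on either side.

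Sec16b, chr1:157506728-157506783, plus strand: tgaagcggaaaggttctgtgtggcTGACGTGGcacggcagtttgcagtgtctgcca
Sec24d, chr3:123267446-123267501, plus strand: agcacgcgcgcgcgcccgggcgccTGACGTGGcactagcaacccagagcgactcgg
Sec23a, chr12:59011980-59012035, minus strand: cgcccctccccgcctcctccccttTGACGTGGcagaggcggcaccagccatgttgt
Copb2, chr9:98563700-98563755, plus strand: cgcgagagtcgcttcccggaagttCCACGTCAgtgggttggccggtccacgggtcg
Copb1, chr7:114254677-114254732, minus strand: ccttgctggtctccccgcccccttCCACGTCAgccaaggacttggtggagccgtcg

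Counted from the transcription start of the RefSeq promoter table, the core begins 44 bases before it in Sec16b, 28 in Copb1, 26 in Sec24d and 7 in Copb2, and 6 bases after it in Sec23a. For Sec16b that start is 157506796, 63 bases inside the listed span of the gene, and for Sec24d it is 123267496, 2695 bases inside, so both cores lie within the listed genes. For Copb1, Copb2 and Sec23a it is the outer end of the listed span. The 5 holders had relative differences of -1.19 (Sec16b), -0.61 (Sec23a), -0.33 (Copb2), -0.31 (Sec24d) and -0.17 (Copb1), all below 0, with a median of -0.33. The 16 measured coat genes whose promoter lacks the core had a median of -0.17, with 12 below 0. Over the 98 measured genes of the whole table that hold the core, the median was -0.10, with 58 below 0. A match describes these letters and does not show a working site.

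Genes of that response gave the following values in the same libraries. Ern1, which encodes the ER stress sensor IRE1 that splices Xbp1 mRNA, had 281 reads in the knockout and 1936 in the control. Xbp1 itself stood at 198 FPKM in the knockout and 172 FPKM in the control, and counts per gene do not separate its spliced and unspliced forms. Of 21 measured genes of a response list, 1 was at least 2-fold higher before any adjustment (Derl3, 15.4 and 6.96 FPKM in knockout and control) and 2 at least 2-fold lower (Ern1, and the chaperone gene Hyou1 at 74.3 and 151 FPKM). Over all measured genes 1.57% were higher and 6.32% lower as deposited. Relative to all genes 1 of the list was higher (background 3.22%) and 1 lower (background 1.36%), with Hyou1 at -0.66. The list's median relative difference was 0.20, or -0.10 with the length trend removed, beside -0.31 and -0.37 for the COPII genes.

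The COPI coat differed less. Its core is a coat of 7 subunits, of which the rule took all but the delta subunit Arcn1, with paralogs for gamma and zeta. Of the 8 measured genes 0 were past 2-fold on either scale, and their median relative difference was -0.12. Copb2, the beta-prime subunit, was lowest with 79.6 FPKM in the knockout and 129 FPKM in the control, a ratio of 0.616 (0.592 to 0.642). Copa (71.9 and 110 FPKM), Copb1 (51.8 and 75.2), Copg1 (62.4 and 91.2) and Copg2 (9.35 and 12.9) lay within 0.25 below the median of all genes in knockout against control. Cope, the epsilon subunit and the gene of highest mean level in this coat, had 159 FPKM in the knockout and 188 FPKM in the control, a relative difference of 0.12, or -0.35 with the length trend removed. Arcn1 had 76.6 and 102 FPKM in knockout and control, a relative difference of -0.04.

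The zeta subunit gene Copz2 departed from the rest of its coat. It had 857 reads in the knockout and 656 in the control, or 61.0 and 40.5 FPKM, a ratio of 1.51 (1.36 to 1.67) and a relative difference of 0.95. Its paralog Copz1 stood at 68.8 and 68.7 FPKM. Copz2 is a short gene of 930 bases, and with the length trend removed its difference was 0.40.

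The p24 family held the highest differences among the members. These proteins (Tmed genes) span the membrane of COPII and COPI vesicles and load cargo such as lipid-anchored proteins. Of 11 measured genes, 2 were past 2-fold on the higher side and 0 on the lower side, on either scale. Over all measured genes 1.57% were higher and 6.32% lower as deposited, and 3.22% and 1.36% relative to the median. The median relative difference of the p24 genes was 0.18.

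Tmed11 on chromosome 5 (108777235 to 108795363, minus strand) had 298 reads in the knockout and 54 in the control, or 25.9 and 4.06 FPKM. The ratio was 6.36 (4.75 to 8.67) and the relative difference 2.89. The authors' comparison also set 1 library against 1 library, so its p-values hold no spread between mice for Tmed11. In the authors' deposited table it was the 1 member of 61 with an adjusted p under 0.05, at 0.00371 with a log2 fold change of 3.05. Among its 16528 genes, 0.436% were higher at that threshold and 0.0605% lower.

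Tmed6 on chromosome 8 (107061484 to 107065644, minus strand) had 1194 reads in the knockout and 527 in the control, or 91.6 and 35.1 FPKM. Its ratio was 2.61 (2.36 to 2.90), with a relative difference of 1.74, and the authors' deposited table gives an adjusted p of 0.145. Its level rank among the 61 members was 14 in the knockout and 37 in the control. With the length trend removed Tmed11 was at 2.24 and Tmed6 at 1.11, so both stayed past 2-fold. The summed acinar markers stood at 151951 FPKM in the knockout and 17769 FPKM in the control, a ratio of 8.55, in these same libraries, and their part in the Tmed6 and Tmed11 values was not tested.

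Most other p24 genes lay within 0.5 of the median of all genes. Tmed3 had the highest mean level, with 212 FPKM in the knockout and 203 FPKM in the control, a relative difference of 0.42. Tmed10, the single delta member, stood at 120 and 110 FPKM (0.48 on the relative scale), and Tmed2, the single beta member, at 143 and 169 FPKM, in knockout and control. Tmed5 was at 14.3 and 12.1 FPKM, a relative difference of 0.59, and Tmed4 (141 and 159 FPKM), Tmed7 (57.3 and 67.0), Tmed8 (16.8 and 23.6) and Tmed1 (3.22 and 4.67) were within 0.20 of the median of all genes. Tmed9 was the lowest of the family, with 85.0 FPKM in the knockout and 146 FPKM in the control, a ratio of 0.582 (0.550 to 0.615). With the length trend removed Tmed9 was at -0.78, the lowest member after Srp54a and Sec16b.

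**Figure D2:**
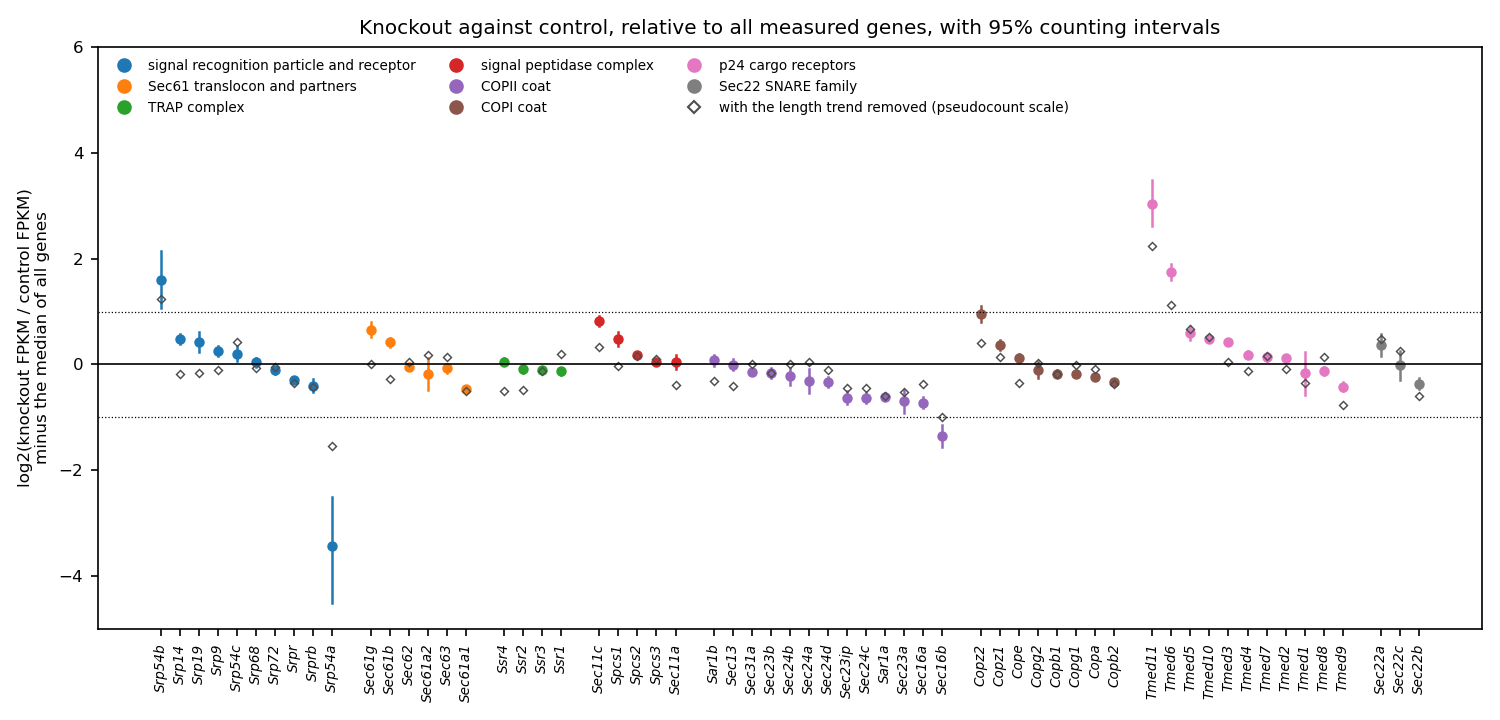
For each of the 60 measured genes, the filled circle is the log2 ratio of knockout over control FPKM minus the median of all measured genes, the bar its 95% counting interval, and the open diamond the difference with the length trend removed. Tmed11, Tmed6 and Srp54b lie above the upper dotted line of 2-fold, Sec16b and Srp54a below the lower one, and most other genes between -0.7 and 0.7.

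The translocation genes, apart from the Srp54 copies, stayed within 2-fold on both scales. Srp54 is the GTPase subunit that reads the signal peptide, and the mouse has neighbouring copies of its gene on chromosome 12, Srp54a (55080476 to 55115367), Srp54b (55155104 to 55189213) and Srp54c (55230111 to 55280015), all on the plus strand. Srp54a had 10 reads in the knockout and 160 in the control, a ratio of 0.0721 (0.0339 to 0.136). Srp54b had 92 and 45 reads, a ratio of 2.36 (1.63 to 3.45), and Srp54c 722 and 932 reads, a ratio of 0.893 (0.810 to 0.986). The copies therefore differed in opposite directions, and Srp54a and Srp54b were past 2-fold relative to all genes at -1.65 and 1.23. The authors' deposited table gives adjusted p-values of 0.144 for Srp54a and 1 for Srp54b.

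These copies can hardly be told apart by sequence, which bears on every count above. In the GENCODE M21 transcripts (GRCm38) the coding sequences of Srp54a and Srp54b, of 1515 bases each, are identical, and Srp54c differs from them at 6 bases (99.6% identity). The stretch with the most differences, coding bases 906 to 965 counted from the A of the start codon, is shown with the differing bases in capitals.

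Srp54a: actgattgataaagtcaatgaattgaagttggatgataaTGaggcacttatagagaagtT
Srp54b: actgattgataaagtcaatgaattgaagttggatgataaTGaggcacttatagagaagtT
Srp54c: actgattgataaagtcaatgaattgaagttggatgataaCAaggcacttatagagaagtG

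Of all windows of 50 bases, 75.2% of the longest Srp54a transcript, 99.8% of that of Srp54b and 93.9% of that of Srp54c occur unchanged in another copy. The sources used here do not give the read length or the handling of reads that match several copies, so values of single copies are uncertain. Summed over the copies, Srp54 had 824 reads in the knockout and 1137 in the control, a ratio of 0.836 (0.763 to 0.915), which is 0.10 above the median of all genes on the log2 scale.

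The other parts of the particle lay between -0.11 and 0.47 on the relative scale, and between -0.18 and -0.05 with the length trend removed. Srp9 and Srp14, which together hold the end of its RNA that slows translation, stood at 82.6 and 89.4 FPKM and at 147 and 136 FPKM in knockout and control. Srp19, an assembly factor of the particle, was at 30.8 and 29.5 FPKM, Srp68 at 47.6 and 59.7 FPKM, and its binding partner Srp72 at 44.8 and 62.3 FPKM. Both receptor genes were lower. Srpr, the gene of highest mean level in this group, had 121 FPKM in the knockout and 192 FPKM in the control, a ratio of 0.630 (0.609 to 0.651), and Srprb, which anchors it, 20.2 and 34.2 FPKM, a ratio of 0.589 (0.543 to 0.639). On the relative scale the receptor genes were at -0.30 and -0.39.

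The 3 subunits of the Sec61 channel did not differ alike. Sec61a1, the pore-forming subunit, had 75.1 FPKM in the knockout and 134 FPKM in the control, a ratio of 0.561 (0.539 to 0.585). Sec61b, the most highly expressed member of all, had 291 and 280 FPKM in knockout and control, a ratio of 1.04 with an interval of 0.981 to 1.10 that includes 1. Sec61g stood at 70.1 and 57.1 FPKM, a ratio of 1.23 (1.11 to 1.36). Relative differences ran from -0.47 for Sec61a1 to 0.42 for Sec61b and 0.66 for Sec61g. The small subunits have short genes (552 and 779 bases, against 3039 for Sec61a1), and with the length trend removed Sec61b was at -0.28 and Sec61g at 0.00, while Sec61a1 kept -0.50. The partners Sec62 and Sec63, which help proteins that arrive after translation, were at -0.05 and -0.07. The paralog Sec61a2 was low, with 1.37 FPKM in the knockout and 1.99 FPKM in the control.

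TRAP, a complex beside the channel that aids the entry of some precursors, was narrow in its differences. Its 4 genes had ratios from 0.709 (Ssr1) to 0.805 (Ssr4), and relative differences from -0.12 to 0.05. Ssr4 had 214 FPKM in the knockout and 266 FPKM in the control, Ssr2 118 and 162, Ssr3 93.6 and 129, and Ssr1 18.6 and 26.3 FPKM. With the length trend removed the short genes Ssr4 and Ssr2 were at -0.51 and -0.48 and the long gene Ssr1 at 0.19, so the narrow spread is that of unadjusted values.

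The signal peptidase complex stood above the median of all genes in 5 of 5 members. Sec11c, one of its catalytic subunits, had 2110 reads in the knockout and 1778 in the control, or 137 and 100 FPKM, a ratio of 1.37 (1.28 to 1.46) and a relative difference of 0.81. The alternative catalytic subunit Sec11a stood at 48.6 and 60.4 FPKM, a ratio of 0.805 (0.735 to 0.881). The accessory subunits Spcs1 (58.1 and 53.5 FPKM), Spcs2 (96.8 and 110) and Spcs3 (87.9 and 109) lay between them in knockout against control. As deposited 2 of the 5 were higher and 3 lower. With the length trend removed 3 of 5 were above 0, with Sec11c at 0.32, Spcs1 at -0.02 and Sec11a at -0.39, so the direction depends on the scaling and on gene length.

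In the Sec22 family, Sec22b, a SNARE of vesicles between ER and Golgi, had 41.3 FPKM in the knockout and 68.3 FPKM in the control. That is a ratio of 0.604 (0.562 to 0.650) and a relative difference of -0.36, or -0.61 with the length trend removed. The family's lesser members were Sec22a at 5.75 and 5.73 FPKM and Sec22c at 1.99 and 2.58 FPKM.

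Pairs of related genes other than the Srp54 copies were compared within each library, which takes the scaling out. The Sec16 and p24 pairs were chosen after their values were seen. Sar1a made up 42.2% of the summed FPKM of Sar1a and Sar1b in the knockout and 54.1% in the control, so the more abundant copy was Sar1b in the knockout and Sar1a in the control. The ratio of Sar1a to Sar1b was 0.619 times that of the control (0.570 to 0.672). Sec23a to Sec23b was 0.689 times (0.586 to 0.807), and Sec24c to Sec24d 0.815 times (0.742 to 0.895).

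On the higher side, Sec11c took 73.9% of its pair with Sec11a in the knockout and 62.4% in the control, and Copz2 47.0% and 37.1% of its pair with Copz1. Copg2 to Copg1 (1.06 times, 0.950 to 1.18), Sec61a2 to Sec61a1 (1.22 times, 0.985 to 1.51) and Sec24a to Sec24b (0.942 times, 0.778 to 1.14) had intervals that include 1. The makeup of the 4 Sec24 cargo adaptors kept its order in both libraries. Sec24c gave 41.3% of their FPKM in the knockout and 46.9% in the control, Sec24d 37.0% and 34.2%, Sec24b 16.0% and 13.7%, and Sec24a 5.68% and 5.18%. Listed lengths differ within several pairs, with 3385 and 1253 bases for Sar1a and Sar1b and 930 and 1924 for Copz2 and Copz1, and in both of these pairs the shorter gene was the one relatively higher in the knockout.

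**Figure D3:**
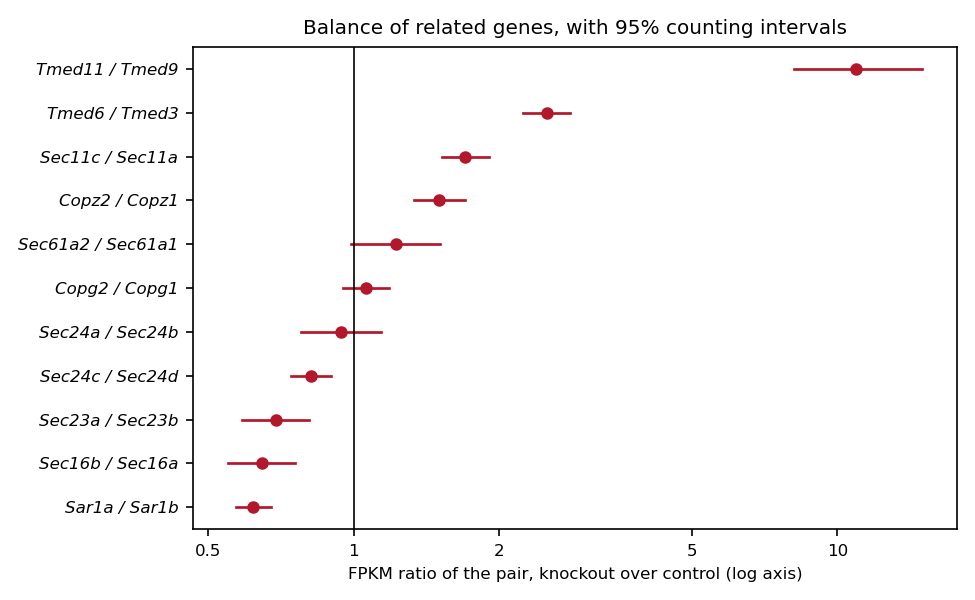
Each point is the FPKM ratio of 2 related genes in the knockout divided by the same ratio in the control, on a log axis, with its 95% counting interval, and the Srp54 copies are left out. Among the pairs drawn, Tmed11 to Tmed9 and Tmed6 to Tmed3 lie farthest above 1, at 10.9 and 2.51, and Sar1a to Sar1b lies lowest at 0.619. The Sec16 and p24 pairs were chosen after their values were seen. Tmed11 and Tmed9 are the highest and lowest of their family, so their pair is extreme by choice.

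Gene length ran alongside the differences among the members as it did among all genes. Spearman's rho of listed length and difference was -0.56 across the 60 members and -0.55 across the 10666 genes, a description across genes of the same 2 libraries. The 18 members under 1500 bases had a median relative difference of 0.42, with 15 above 0, beside 0.49 for the 1373 genes of that length. The 20 members of 4000 bases or more had a median of -0.19, with 17 below 0, beside -0.21 for 4568 genes. A running median over 501 genes ordered by length was subtracted to remove this trend. The members then had a median of -0.09, with quartiles of -0.36 and 0.14, beside -0.22 and 0.24 for all genes. Between the unadjusted relative scale and this one, 21 of the 60 members lay on opposite sides of 0. On the adjusted scale 3 members were at least 2-fold higher (background 2.03%) and 1 at least 2-fold lower (background 1.08%). Srp54a, the lower one at -1.54, and Srp54b, among the higher at 1.23, each passed the minimum level through 1 library only. Sec16b was at -0.99.

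**Figure D4:**
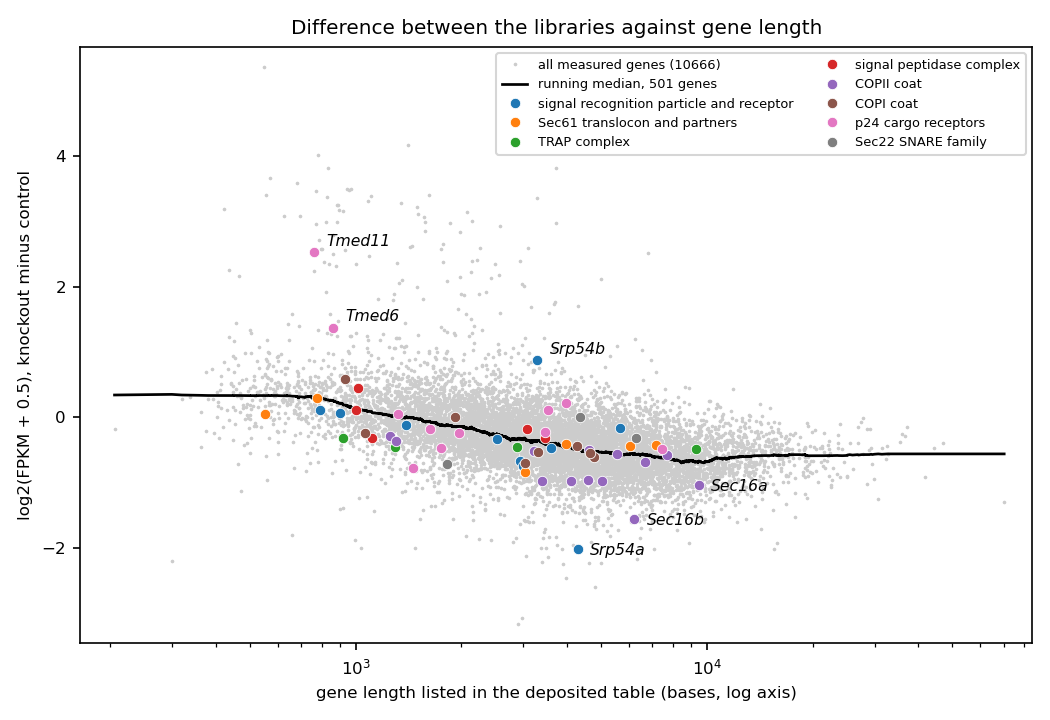
Difference of each measured gene between the knockout and the control library against its listed length on a log axis, with all genes in grey, the members coloured by role and the running median as a black line. Most members follow the falling line, while Tmed11, Tmed6 and Srp54b lie above it and Srp54a and Sec16b below it.

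Genes that work with this machinery but are no members were read from lists chosen with earlier results of these data known. The enzymes that attach sugars in the ER, the oligosaccharyltransferase subunits, had 0 of 12 measured genes past 2-fold and a median relative difference of 0.19, from Rpn1 at -0.26 to Krtcap2 at 0.96. Other insertion and translocation factors had 0 of 21 past 2-fold and a median of 0.09, from Emc8 at -0.37 to Emc4 at 0.46. Regulators of COPII and receptors at ER exit had a median of 0.12. Of their 23 measured genes, 0 were past 2-fold on the relative scale and 1 on the lower side as deposited (background 6.32%). That gene was Mia3, which encodes TANGO1, the exit-site receptor for bulky cargo, at 26.5 FPKM in the knockout and 53.9 FPKM in the control. Mcfd2 was highest in the list at 0.81. ER to Golgi SNAREs and their partners had 0 of 11 past 2-fold and a median of -0.01, from Gosr2 at -0.45 to Use1 at 0.96. The background shares were 1.57% higher and 6.32% lower as deposited, and 3.22% and 1.36% relative to the median. At such shares, lists this short would hold few genes past 2-fold, so these counts do not set them apart.

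COPI regulators and retrieval factors, a list that also holds the coat subunit gene Arcn1, had a median relative difference of -0.22. The COPI members had -0.12. Of the 16 measured genes of the list, 3 were past 2-fold on the lower side as deposited, beside 6.32% of all measured genes. On the relative scale 1 was, beside 1.36%. Arfgap2, which encodes an activator of GTP hydrolysis by Arf1 on COPI vesicles, had 98 reads in the knockout and 485 in the control, or 1.90 and 8.17 FPKM. Its ratio was 0.233 (0.186 to 0.290), with a relative difference of -1.49, or -1.47 with the length trend removed. Its relative Arfgap1 stood at 16.5 and 34.6 FPKM and the Golgi matrix gene Golga2 at 15.8 and 32.6 FPKM, in knockout and control. Kdelr3, a receptor that returns ER proteins, was the highest at 15.6 and 9.91 FPKM. Arf4 is listed at 0 reads in both libraries.

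For 7 members the listed span overlaps a gene on the opposite strand, and no source used here gives the strand setting of the counting, so reads in the shared part cannot be assigned with certainty. Tmed1, with 85 reads in the knockout and 142 in the control, shares 380 bases with Dnm2, which had 1777 and 2844 reads. Spcs1 shares 470 bases with Glt8d1, Copa 261 with Ncstn, Copg2 913 with Mest and Srpr 39 with Fam118b. Tmed8 and Spcs2 overlap Samd15 and Xrra1, which had at most 63 reads in either library.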

How the data were processed

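Whole-number read counts per gene and FPKM were deposited for both libraries, per the file headers. Every FPKM value could be recomputed from the counts, the listed length and the library's total. The authors' deposited comparison table holds a normalised signal per library (counts over a size factor of 0.816 for the knockout and 1.23 for the control), a fold ratio (knockout over control) with its log2 and p-values. With 1 library per group, none of those p-values holds an estimate of the spread between mice. Per the submitters' processing notes, Bowtie2 2.4.2, DESeq and the builds mm10 and GRCm38 were used. For the counting tool, strand setting and annotation release the entry is: not given in the sources used here. Coordinates are those of the deposited table, and 60 of 61 members had the same start and end in the RefSeq table of GRCm38.p6.

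Groups and columns were matched by the labels. With 1 library per group no count model, p-value or standard error was computed, and a size rule of 2-fold on log2(FPKM + 0.5) over genes whose mean FPKM reached 1 takes the place of a test. That scale understates differences of low genes. Ratios of FPKM have exact 95% intervals from the binomial split of the reads (Clopper-Pearson), and pairs of genes have exact conditional odds ratio intervals. Both cover counting error only: without molecular identifiers, PCR copies pass as separate reads. The steps were tested on simulated data. Python 3.11.15, pandas 2.3.3, scipy 1.17.1, matplotlib 3.10.9 and Biopython 1.88 were used.

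The members, roles, lists, motifs and tests were chosen with earlier results of these data known. Within each role the text names with full values the highest and lowest difference, the highest mean FPKM and every gene past 2-fold, and the other members with their levels or by range. Marker lists of alpha, delta and PP, macrophage, B, duct, endothelial and stromal cells were also read. Median relative differences were 0.45, 1.49, 0.74, 1.88, 1.11, -0.10 and 0.32 in that order, beside 3.54 for acinar and -0.45 for beta cell markers. A comparison of protein sequences had been planned and is not given here. Alternatives were the pseudocount, the scaling, the minimum level, the fold rule and removal of the length trend.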

Additional observations from a re-analysis of the deposited data

How the results depend on the processing

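No paired analysis was possible because each group has 1 library, and for the same reason no library could be left out. Summary values were recomputed under each alternative: 105 stayed within counting error (medians) or within 1.5 times (counts), and 22 did not. With a 1.5-fold rule, 15 members were lower and 4 higher as deposited, and 7 were lower and 7 higher relative to all genes. The count of members at least 2-fold lower relative to all genes was 1 under the stricter minimum of 5 FPKM and 1 with the length trend removed. The members' median difference of -0.41 became -0.045 with median-of-ratios scaling and with the authors' normalised counts, -0.18 without the 20 highest genes in the total and -0.20 without the acinar list. With no minimum, relative medians were -0.20 for all members, -0.020 for the signal recognition particle, -0.20 for the Sec61 group, -0.24 for TRAP, 0.038 for signal peptidase, -0.27 for COPI and 0.039 for p24, because the median of all genes itself was then -0.22. Under the stricter minimum they were -0.48 for COPII and 0.28 for p24. With the length trend removed they were -0.14 for the signal recognition particle, -0.31 for TRAP and 0.26 for the Sec22 family. The signal recognition particle median thus changed sign with the first and the last of these settings. In the first the subtracted median of all genes was -0.22 in place of -0.36, and in the last the length trend was subtracted. Other medians changed sign within counting error. For the Sec61 group -0.051 became 0.021 with the length trend removed. For the Sec22 family 0.055 became -0.090 with no minimum and -0.019 under the stricter minimum. For values of single named genes, 107 moved by more than counting error and 263 did not, and 21 of 60 members turned sign on the relative scale once the length trend was removed. Precision is limited most for Sec31b, Srp54a, Srp54b, Tmed11 and Tmed1, which have few reads in at least 1 library.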
